A study of Mus musculus with 3 samples.

Results

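A set of 10 lysosomal protease genes, the cathepsins Ctsa, Ctsb, Ctsc, Ctsd, Ctsh, Ctsk, Ctsl, Ctss and Ctsz and the legumain gene Lgmn, were followed through the mRNA carried by apoptotic bodies (ABs) of the osteoclast lineage. They were chosen by gene symbol. All 10 had rows in the deposited mRNA table, with 40 of its 56651 transcripts among 15832 genes. The series holds 3 libraries without replicates, from the ABs of bone marrow macrophages (BMM-ABs), of preosteoclasts (pOC-ABs) and of mature osteoclasts (mOC-ABs). The C57BL/6 mice were 11 weeks of age. The mice were male by the methods text. Sample titles give the cells rather than the ABs, and the libraries are treated here as ABs because the design text calls them that. By the labels, marrow cells received M-CSF at 50 ng/ml for 72 h to give BMMs, which then received M-CSF at 30 ng/ml with RANKL at 100 ng/ml for 24 h (pOC) or at least 72 h (mOC). All 3 cultures were then exposed to alendronate at 500 μM for 12 h, again by the labels. The methods text instead names staurosporine, a longer RANKL time for mOCs, a higher M-CSF dose beside RANKL and a shorter M-CSF culture for BMM precursors. BMM-ABs were the group without RANKL, and no library of ABs from untreated cells was analysed here. With 1 library per group, no difference below can be set against a spread between samples, and every interval covers the error of counting reads only.

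Cathepsins are proteases that are made as inactive precursors, carried to the lysosome mostly through mannose 6-phosphate receptors, and activated at acid pH. Macrophages use them to degrade what they have engulfed and to prepare antigens. Osteoclasts release cathepsin K onto bone, where it cleaves collagen in the acid space under the cell. By chemistry, Ctsb, Ctsc, Ctsh, Ctsk, Ctsl, Ctss and Ctsz encode cysteine proteases of the papain family, Ctsd an aspartic protease and Ctsa a serine carboxypeptidase. Legumain is an asparaginyl endopeptidase that processes several cathepsins to their mature chains.

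The mRNA table held 9100082 reads from BMM-ABs, 7387317 from pOC-ABs and 7705592 from mOC-ABs. Reads of all listed transcripts of a gene were summed and divided by these totals to give RPM, the gene's reads per 1000000 reads of the table. At this depth 3 reads, taken here as the limit for a count of 0, were 0.330, 0.406 and 0.389 RPM. This limit is lower than the upper end of an exact 95% interval for a count of 0. Where 3 values are given without names, they are in this order of libraries. The ratio between libraries is given as a log2 ratio or as a fold with its exact 95% interval. A gene was called when the ratio was above 2 or below 0.5 and the gene had at least 20 reads over the 3 libraries, which 12702 genes and 9 of the 10 proteases did. The comparisons pOC-ABs vs BMM-ABs, mOC-ABs vs BMM-ABs and mOC-ABs vs pOC-ABs share libraries, so they are not independent of each other.

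Together the 10 genes took 0.479% of the mRNA reads in BMM-ABs (interval 0.475% to 0.484%), 0.248% in pOC-ABs (0.244% to 0.252%) and 0.261% in mOC-ABs (0.257% to 0.265%). The total was thus 1.93-fold lower in pOC-ABs and 1.84-fold lower in mOC-ABs than in BMM-ABs. Most of this total came from 6 genes, Ctsb, Ctsd, Ctsz, Ctsa, Ctss and Lgmn, each with over 1000 reads in every library. Without Ctsb, the gene with the most reads, the shares were 0.318%, 0.177% and 0.182%. These are shares of each library's own mRNA reads, so less of these mRNAs and more of other mRNAs cannot be told apart. In bulk material such as this, neither can fewer ABs that carry these mRNAs and less of these mRNAs per AB.

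**Figure D1:**
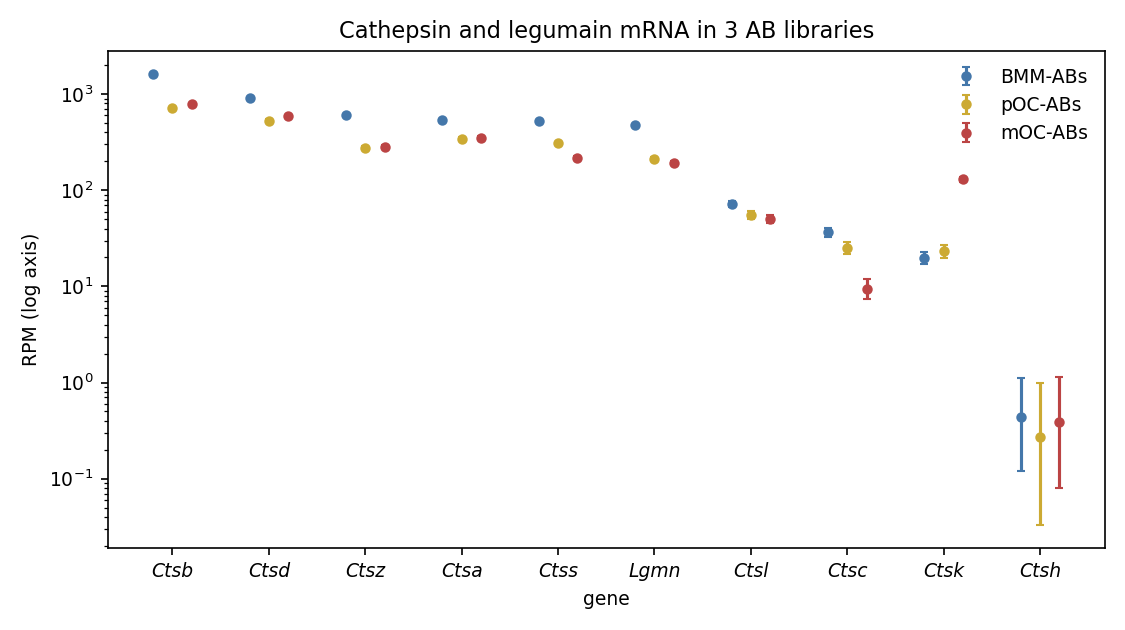
RPM (log axis) of each cathepsin gene and Lgmn in the 3 AB libraries, with bars for the exact 95% counting interval. In 8 of the 10 genes BMM-ABs hold the highest value beyond these intervals. Ctsk is highest in mOC-ABs at 130 RPM, and the intervals of Ctsh overlap.

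Ctsk, the collagen-cleaving cathepsin of osteoclasts, had 180 reads from BMM-ABs, 171 from pOC-ABs and 1001 from mOC-ABs, which were 19.8, 23.1 and 130 RPM. Its level in mOC-ABs stood apart from the other 2 libraries, whose counting intervals (17.0 to 22.9 and 19.8 to 26.9 RPM) overlapped. The ratio was 6.57-fold higher in mOC-ABs than in BMM-ABs (5.60 to 7.74) and 5.61-fold higher than in pOC-ABs (4.77 to 6.64), above 99.2% of all genes tested in both comparisons. Between pOC-ABs and BMM-ABs the log2 ratio was 0.23, with an interval from −0.08 to 0.54 that holds 0. The gene lies at chr3:95499256-95509362 on the forward strand of GRCm38, and its reads were all assigned to 1 coding transcript, ENSMUST00000015664, of 8 exons. Even so, Ctsk stayed a small part of the group. Per transcript length (FPKM, reads scaled by transcript length and library total), it made up 0.590%, 1.24% and 6.91% of the 10 genes' sum and ranked 9, 8 and 7 among them.

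Cathepsin S, which trims the invariant chain of MHC class II in antigen-presenting cells, is encoded by the next gene along the chromosome, at chr3:95526786-95556403, 17423 bases beyond the end of Ctsk on the same strand. Ctss went the other way from Ctsk in mOC-ABs. It had 4761 reads from BMM-ABs, 2279 from pOC-ABs and 1674 from mOC-ABs, or 523, 309 and 217 RPM, each value outside the others' intervals. Against BMM-ABs the log2 ratio was −0.76 (−0.83 to −0.69) in pOC-ABs and −1.27 (−1.35 to −1.19) in mOC-ABs. Arnt, the gene before Ctsk, had 808, 597 and 586 reads, with log2 ratios of −0.14 and −0.22 against BMM-ABs. It was looked up after the values of Ctsk and Ctss were seen.

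The start regions of this neighbouring pair are shown because their levels differ in direction. Capitals mark every match, on either strand, of the motifs CACGTG (E-box), CATGTG (core of the M-box), TGANTCA (AP-1) and GAGGAA (core of PU.1 sites), and both windows are written in the direction of the gene. They run from 250 bases before the RefSeq start to 50 bases after it, on GRCm38.p6, at chr3:95498960-95499259 for Ctsk and chr3:95526536-95526835 for Ctss.
Ctsk: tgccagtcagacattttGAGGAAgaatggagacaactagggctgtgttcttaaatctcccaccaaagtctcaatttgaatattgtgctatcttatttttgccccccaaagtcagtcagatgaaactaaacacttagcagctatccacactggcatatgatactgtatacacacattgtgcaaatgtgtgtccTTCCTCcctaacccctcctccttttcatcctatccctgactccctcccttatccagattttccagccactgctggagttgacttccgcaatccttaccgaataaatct
Ctss: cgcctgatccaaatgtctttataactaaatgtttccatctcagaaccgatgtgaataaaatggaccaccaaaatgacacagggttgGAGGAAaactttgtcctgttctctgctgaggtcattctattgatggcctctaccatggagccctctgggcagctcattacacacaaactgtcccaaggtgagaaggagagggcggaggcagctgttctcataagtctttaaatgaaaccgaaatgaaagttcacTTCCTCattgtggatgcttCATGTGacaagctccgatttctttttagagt
Both windows hold GAGGAA at 2 positions, in Ctsk 233 and 58 bases before the start, and Ctss also holds CATGTG 19 bases after it. GAGGAA is frequent, being present in 28.3% of the 32851 RefSeq windows of this length, and CATGTG in 14.2%.

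RefSeq windows were found for 8 of the 10 genes, 10 windows in all, and none for Ctsb and Ctsh. CACGTG, the letters bound by MITF and TFE factors, was present in 4 of these 10 windows and in 7.15% of all windows. These were windows of Ctsa, Ctsd, Ctsl and Lgmn, with 6 matches between them. CATGTG was present in 3, those of Ctsa, Ctss and Lgmn, and GAGGAA in 3, those of Ctsc, Ctsk and Ctss. TGANTCA was in none of the 10 and in 7.81% of all windows. Such matches describe letters and do not show that a factor binds. The windows with 2 E-boxes are printed in the same way, that of Ctsd (chr7:142387778-142388077, reverse strand) and the second of Ctsa (chr2:164833523-164833822, forward strand).
Ctsd: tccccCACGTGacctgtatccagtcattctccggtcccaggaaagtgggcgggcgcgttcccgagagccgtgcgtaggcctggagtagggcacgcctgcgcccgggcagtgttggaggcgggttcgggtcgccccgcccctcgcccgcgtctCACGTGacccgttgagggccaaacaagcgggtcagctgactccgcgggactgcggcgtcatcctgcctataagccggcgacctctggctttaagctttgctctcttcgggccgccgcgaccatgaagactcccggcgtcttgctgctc
Ctsa: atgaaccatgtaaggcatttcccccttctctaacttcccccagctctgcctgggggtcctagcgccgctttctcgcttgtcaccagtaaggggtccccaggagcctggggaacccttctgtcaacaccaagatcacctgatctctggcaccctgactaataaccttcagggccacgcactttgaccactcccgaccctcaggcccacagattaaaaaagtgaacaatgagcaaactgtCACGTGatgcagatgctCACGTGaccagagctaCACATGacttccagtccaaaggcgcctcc

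The abundant endopeptidases followed a shared order, with BMM-ABs above both other libraries. Ctsb, a cysteine protease that works both as an endopeptidase and from the carboxyl end, is encoded at chr14:63122462-63145923. It had 14727 reads from BMM-ABs, 5252 from pOC-ABs and 6091 from mOC-ABs, or 1618, 711 and 790 RPM. Against BMM-ABs it was 2.28-fold lower in pOC-ABs (2.21 to 2.35) and 2.05-fold lower in mOC-ABs. The interval of the latter ratio, 1.99 to 2.11, holds the limit of 2. Ctsd, at chr7:142375911-142388038, had 8259, 3908 and 4527 reads, or 908, 529 and 587 RPM, with log2 ratios of −0.78 in pOC-ABs and −0.63 in mOC-ABs. Both genes were slightly higher in mOC-ABs than in pOC-ABs, each by 0.15 on the log2 scale with an interval above 0. Ctsl, a broadly expressed endopeptidase at chr13:64359337-64370890, was scarcer, with 657, 408 and 388 reads or 72.2, 55.2 and 50.4 RPM. Its log2 ratios against BMM-ABs were −0.39 (−0.57 to −0.21) and −0.52 (−0.70 to −0.34), and the values of pOC-ABs and mOC-ABs lay within each other's counting error.

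The exopeptidases divided into abundant and scarce genes. Ctsz, which trims single residues from the carboxyl end and is encoded at chr2:174427493-174439039, had 5509 reads from BMM-ABs, 2032 from pOC-ABs and 2170 from mOC-ABs, or 605, 275 and 282 RPM. It was 2.20-fold lower in pOC-ABs (2.09 to 2.32) and 2.15-fold lower in mOC-ABs (2.05 to 2.26) than in BMM-ABs. Ctsa, which also protects neuraminidase and beta-galactosidase inside the lysosome, lies at chr2:164832873-164841032. It had 4855, 2517 and 2689 reads, or 534, 341 and 349 RPM, with log2 ratios of −0.65 in pOC-ABs and −0.61 in mOC-ABs.

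Ctsc encodes dipeptidyl peptidase I, the activator of the serine proteases of immune granules, at chr7:88278085-88310888. It had 332 reads from BMM-ABs, 186 from pOC-ABs and only 73 from mOC-ABs, or 36.5, 25.2 and 9.47 RPM, and the 3 counting intervals were separate. It was the gene with the lowest ratio of the group in mOC-ABs, 3.85-fold lower than in BMM-ABs (2.98 to 5.03) and 2.66-fold lower than in pOC-ABs (2.02 to 3.53). Ctsh, an aminopeptidase at chr9:90054152-90076089, had 4, 2 and 3 reads, at or near the limit of 3 reads, and no ratio was taken from them.

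Lgmn, at chr12:102394084-102439813, had 4349 reads from BMM-ABs, 1570 from pOC-ABs and 1491 from mOC-ABs, or 478, 213 and 193 RPM. BMM-ABs stood above both RANKL-exposed libraries, by 2.25-fold over pOC-ABs (2.12 to 2.38) and 2.47-fold over mOC-ABs (2.33 to 2.62). The pOC-ABs and mOC-ABs were close, with a log2 ratio of −0.14 between them (−0.24 to −0.03).

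The comparison pOC-ABs vs BMM-ABs sets ABs of cells given 24 h of RANKL against those of cells given none. In it 8 of the 9 genes tested were lower, beside 51.5% of all genes, and Ctsk was the exception. The limit of 2-fold was passed by 3 genes, Ctsb, Ctsz and Lgmn, all lower, where 6.05% of all genes were past it in that direction. None was over 2-fold higher, against 4.84% of all genes. The median log2 ratio of the 9 was −0.76, and that of all genes −0.02. Among the 5317 genes with at least 1000 reads over the libraries, which all of the tested proteases but Ctsc had, 3.33% were over 2-fold lower.

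For mOC-ABs vs BMM-ABs, 5 of the 9 were over 2-fold lower, Ctsb, Ctsc, Ctss, Ctsz and Lgmn, beside 8.98% of all genes and 4.18% of those with at least 1000 reads. Ctsk alone was over 2-fold higher, beside 4.12% of all genes. The median of the 9 log2 ratios was −1.03 and that of all genes −0.05. Scaled by size factors (median of ratios) instead, or by upper quartiles, Ctsb was at −0.99 and 4 genes were over 2-fold lower. Of the genes within the limit, Ctsd was at −0.63, Ctsa at −0.61 and Ctsl at −0.52.

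For mOC-ABs vs pOC-ABs, 5 genes were higher and 4 lower, where 54.4% of all genes were lower. Ctsk was past the limit upward, where 3.48% of all genes were, and Ctsc downward, where 6.83% were. Of the 9 intervals, 3 lay above 0 (Ctsb, Ctsd and Ctsk), 3 below it (Ctsc, Ctss and Lgmn) and 3 held it. The share of all genes whose interval lay off 0 was not computed. At high read counts small ratios suffice, as for Ctsb and Ctsd, each at 0.15. The median was 0.03, but −0.14 from summed FPKM and −0.12 from coding transcripts alone.

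**Figure D2:**
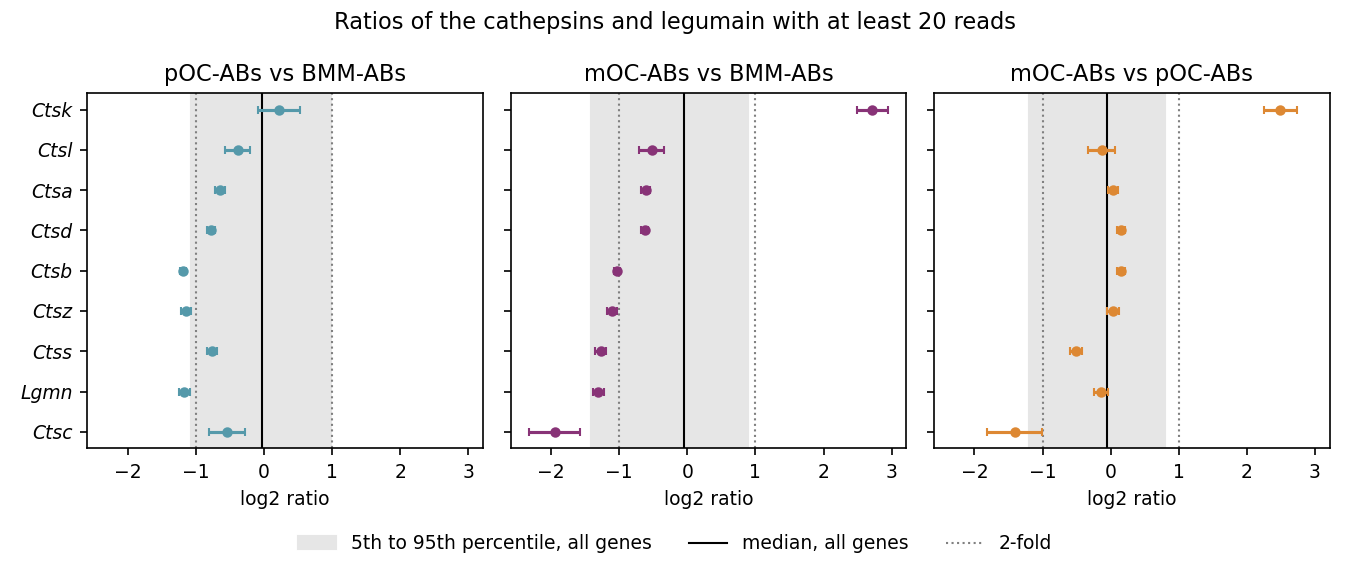
Log2 ratios of the 9 cathepsin and legumain genes with at least 20 reads in each comparison, with bars for the exact 95% counting interval. The grey band spans the 5th to 95th percentile of 12702 genes, the black line their median and the dotted lines the 2-fold limit. Ctsk lies at 2.72 and 2.49 in the comparisons with mOC-ABs, and the other 8 genes lie below 0 in both comparisons with BMM-ABs.

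The order of the genes within a library was read from FPKM, which corrects for transcript length. Ctsd was first in all 3 libraries, at 440 FPKM from BMM-ABs, 252 from pOC-ABs and 292 from mOC-ABs. In BMM-ABs Ctsz (420 FPKM) followed within the counting error of Ctsd, and Ctss (386) and Ctsb (371) did not differ beyond theirs. In pOC-ABs Ctss (228) and Ctsa (224) came next with overlapping intervals. In mOC-ABs Ctsa (201) and Ctsz (195) overlapped, and Ctss had moved to rank 5 with 160 FPKM. Ctsb had the most reads in every library but ranked only 4, 5 and 4 per length, since its main transcript is 4743 bases long. Ctsl, Ctsc, Ctsk and Ctsh were below the other 6 genes throughout. In BMM-ABs the intervals of Ctsc (15.9) and Ctsk (13.1) overlapped. Ctsk was above Ctsc beyond counting error in pOC-ABs, and above Ctsl as well in mOC-ABs, where it reached 85.9 FPKM against 26.3 for Ctsl and 98.0 for Lgmn.

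**Figure D3:**
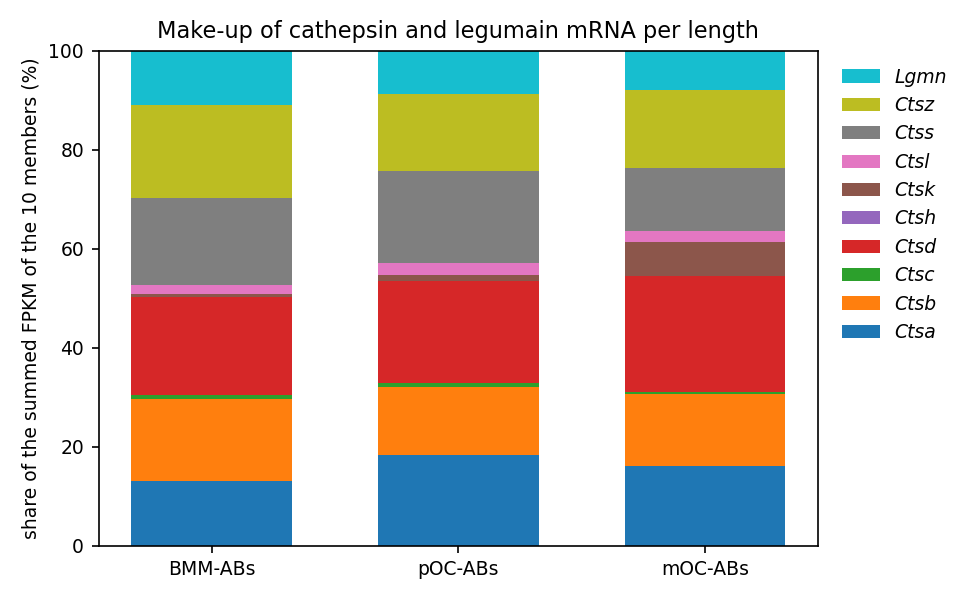
Share (%) of each gene in the summed FPKM of the 10 genes, with 1 bar per AB library. Ctsk takes 0.590% in BMM-ABs and 6.91% in mOC-ABs, while Ctsd holds the largest share in each bar, 19.9%, 20.5% and 23.5%.

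In Ctsa, Ctsd and Ctss, and to a smaller degree in Ctsl and Ctsb, the division of reads between transcripts differed between libraries. Of the 40 listed transcripts, 21 were protein coding, 15 retained an intron, 3 were processed transcripts without a coding region and 1 was a target of nonsense-mediated decay. The transcript with the most reads differed between libraries in 2 genes, Ctsa and Ctsh, and among coding transcripts in Ctsa only. Ctsh rests on 4, 2 and 3 reads. The share of all genes with such a difference was not computed, so this count has no background beside it.

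Ctss has 2 coding transcripts that share 1352 of 1355 exonic bases. ENSMUST00000116304 had 4272 reads from BMM-ABs, 1169 from pOC-ABs and 1515 from mOC-ABs. ENSMUST00000015667 had 489, 1110 and 159, which were 10.3%, 48.7% and 9.50% of the reads of Ctss. Its share in pOC-ABs (46.6% to 50.8%) was far from that in the other libraries, and its log2 ratio was 1.48 for pOC-ABs vs BMM-ABs while that of the gene as a whole was −0.76. The 3 coding bases that set it apart, at chr3:95529434-95529436, are shown in capitals between 15 bases on each side. They have the length of 1 codon, but the reading frame was not checked. The other 3 bases lie at the transcript end.
ENSMUST00000015667: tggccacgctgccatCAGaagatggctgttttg
ENSMUST00000116304: tggccacgctgccataagatggctgttttg
How reads that fit both transcripts were divided is not given in the sources used here and was not tested. The interval of this share covers the counting of assigned reads only.

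Ctsd too had other shares in pOC-ABs than in both other libraries, which also differed from each other. ENSMUST00000151120 had 7216 reads from BMM-ABs, 3889 from pOC-ABs and 3378 from mOC-ABs. ENSMUST00000066401 had 985 reads in BMM-ABs and 1093 in mOC-ABs, or 11.9% and 24.1% of the gene. In pOC-ABs it was assigned 0 of 3908 reads, where 3 reads would be 0.0768%. With 3 reads in place of 0, pOC-ABs were 267-fold lower than BMM-ABs, and mOC-ABs 349-fold higher than pOC-ABs. The pair share 1922 bases, all those of the shorter transcript, so only reads at the points of difference tell them apart. These values therefore describe assigned reads and set no limit on the transcript's true share. The longer transcript has 18 coding bases more, in capitals (chr7:142377333-142377350, written in the direction of the gene), and longer ends. These have the length of 6 codons, and the reading frame was not checked here either.
ENSMUST00000151120: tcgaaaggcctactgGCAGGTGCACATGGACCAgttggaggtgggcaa
ENSMUST00000066401: tcgaaaggcctactggttggaggtgggcaa
How the counting tool divided the reads that fit both transcripts was not tested. The sum over both does not depend on it.

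Ctsa had 15 listed transcripts, the most of the group. ENSMUST00000103092 had 2177 reads from BMM-ABs, 35 from pOC-ABs and 1396 from mOC-ABs, shares of 44.8%, 1.39% and 51.9%. ENSMUST00000103093 had 1794, 1717 and 660, shares of 37.0%, 68.2% and 24.5%. The shorter coding transcript ENSMUST00000127650 had 43 reads from BMM-ABs, 474 from pOC-ABs and 0 of 2689 from mOC-ABs, which allows up to 0.112% of the gene. The shares of these transcripts in pOC-ABs thus differed from those in both other libraries, which also differed from each other. The leading transcript depended on the measure. By FPKM it was ENSMUST00000103093 in BMM-ABs (77.8) and pOC-ABs (91.7). In mOC-ABs it was ENSMUST00000128596 (53.0), which retains an intron. As for Ctss and Ctsd, the division of shared reads between transcripts was not tested, so the shares describe assigned reads. ENSMUST00000103092 reaches 54 coding bases (18 codons) further at its start than ENSMUST00000103093, which are shown in capitals at chr2:164833797-164833850 before the first 15 coding bases that both share.
ENSMUST00000103092: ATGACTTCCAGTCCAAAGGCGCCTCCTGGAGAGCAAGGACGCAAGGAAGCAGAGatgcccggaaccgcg
The first bases of this stretch are also the end of the second Ctsa window printed above. Transcripts that retain an intron took 13.8% of the reads of Ctsa in BMM-ABs (12.8% to 14.8%), 8.38% in pOC-ABs (7.33% to 9.53%) and 537 of 2689 reads in mOC-ABs (18.5% to 21.5%). Most of that difference lay in ENSMUST00000128596, with 250, 19 and 314 reads.

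In the other genes with more than 9 reads the same transcript led in every library. In Ctsc the main transcript ENSMUST00000032779 had 227, 128 and 42 reads and ENSMUST00000131108 had 88, 49 and 25. In Ctsl ENSMUST00000021933 had 530, 371 and 365 reads, or 80.7%, 90.9% and 94.1% of the gene. ENSMUST00000222517, which contains all of its exonic bases and 4197 more, had 76, 17 and 16, or 11.6%, 4.17% and 4.12%. For both transcripts the interval of BMM-ABs was separate from those of the other libraries. One transcript held 97.4%, 95.5% and 97.7% of the reads of Ctsb, and the interval of pOC-ABs (94.9% to 96.0%) lay below the others. In Lgmn 1 transcript held 98.7% or more in every library, and Ctsz has 1 annotated transcript. The reads of Ctsh lay on ENSMUST00000127842, which retains an intron, in BMM-ABs (4) and pOC-ABs (2) and on the coding ENSMUST00000034915 in mOC-ABs (3).

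**Figure D4:**
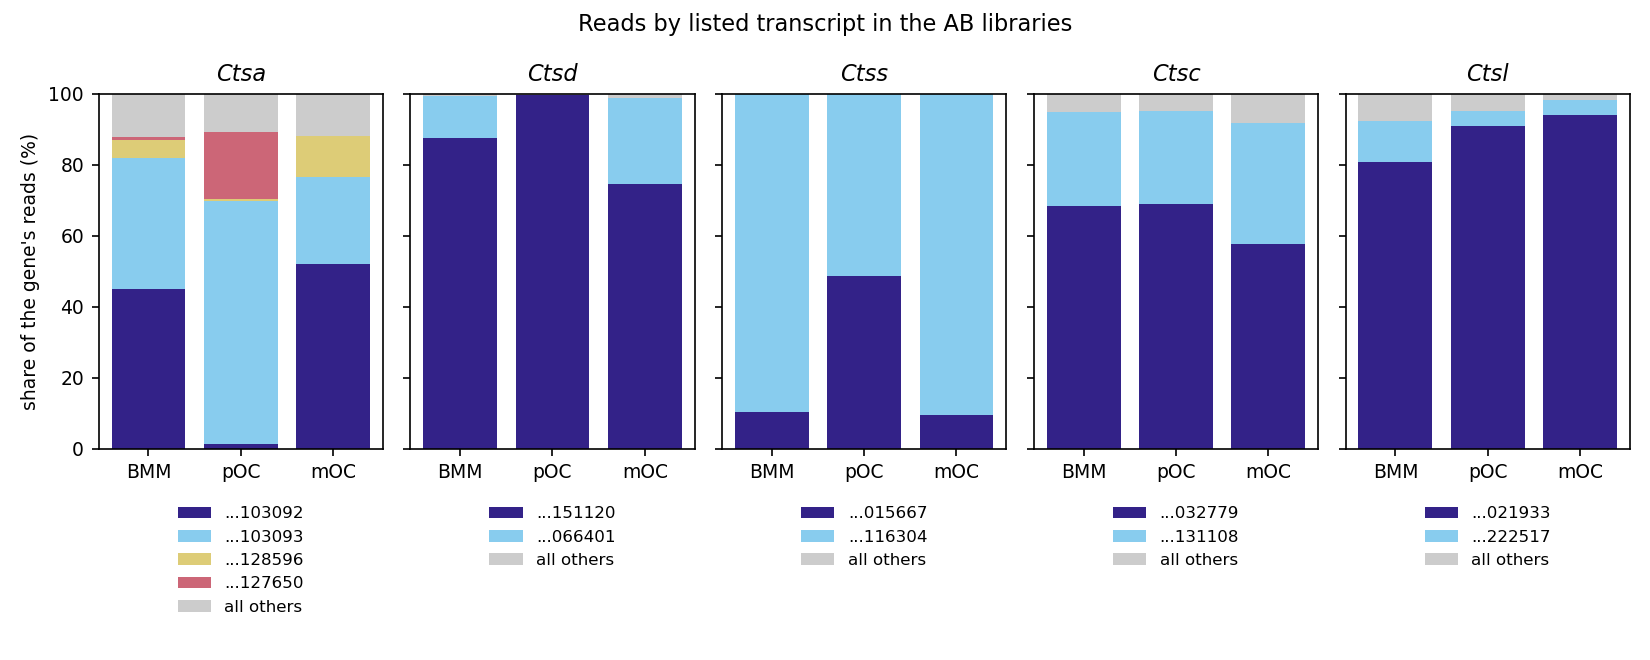
Share (%) of each gene's reads by listed transcript in each AB library for the 5 genes with more than 1 transcript at 10% or more, leaving out Ctsh with its 9 reads. Legends give the last 6 digits of the Ensembl transcript identifier. The pOC bars differ from both others in Ctsa, where ENSMUST00000103092 takes 1.39%, in Ctsd and in Ctss.

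Other RNAs at these genes were few. Of 23718 lncRNA transcripts in the lncRNA table, 6 overlapped 5 of the genes, with at most 87 reads, those of NONMMUT064258.2 at Ctsd (87, 41 and 28 reads). This was 1.05%, 1.05% and 0.619% of the reads of Ctsd, and the strand used in counting is not given in the sources used here. None of 1372 circRNAs had one of the 10 genes as host. The libraries, selected on poly-T beads, held only 3413, 2380 and 4014 junction reads in all, so this absence says little about these genes.

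Markers of the cells of origin also differed between the libraries. The 7 macrophage markers summed to 5187 RPM from BMM-ABs, 2447 from pOC-ABs and 1609 from mOC-ABs. All 6 of them with at least 20 reads were lower in both comparisons with BMM-ABs, but to unlike degrees. Among them were Lyz2 (28844, 9854 and 3170 reads) and Csf1r (9870, 2640 and 3902 reads). Cd68 differed little (6638, 4794 and 5056 reads), with log2 ratios of −0.17 and −0.15 against BMM-ABs. Mertk was at 0, 2 and 5 reads. The 10 osteoclast markers, Ctsk among them, summed to 345, 581 and 1870 RPM. Acp5 had 88, 292 and 2157 reads and Oscar 0, 7 and 49, whereas Itgb3 had 6, 3 and 0 and Calcr was not listed. Ctsk itself differed little between BMM-ABs and pOC-ABs (180 and 171 reads), where the sum of the list it belongs to was higher in pOC-ABs. The other 8 tested proteases were lower in both comparisons with BMM-ABs, as was the sum of the macrophage list. In mOC-ABs vs pOC-ABs the proteases and the macrophage list parted. The median log2 ratio of the tested macrophage markers was −1.56 (4 lower and 2 higher). That of all 9 tested proteases, Ctsk included, was 0.03 (4 lower and 5 higher). The summed reads of the proteases without Ctsk had a log2 ratio of 0.01 (−0.02 to 0.04). The part of these markers in the ratios was not tested. Lists for T cells, B cells, neutrophils, stromal and erythroid cells had at most 19 reads in any library, and no neutrophil or erythroid marker was listed.

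Among 8360 genes with at least 100 reads in each of the 3 libraries, those most like Ctsk were Zc3h11a, Eno3 and Fam102a. Likeness was the distance between the log2 ratios of pOC-ABs and mOC-ABs against BMM-ABs, and was 0.451, 0.454 and 0.523. The minimum left out scarcer osteoclast markers, such as Ocstamp with 32, 42 and 160 reads and log2 ratios of 0.69 and 2.56. Eno3, the muscle form of enolase, had 293, 324 and 1237 reads. Zc3h11a had 146, 147 and 597 and Fam102a 806, 1085 and 4062. With 3 libraries this likeness describes 2 ratios and no more.

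Other proteases of the same families were mostly not listed. Of 19 genes, 5 had rows and 4 had 20 reads or more, with medians of −0.95 and −1.15 in pOC-ABs and mOC-ABs vs BMM-ABs and −0.17 in mOC-ABs vs pOC-ABs. All 4 were lower in both comparisons with BMM-ABs, as were 51.5% and 54.6% of all genes. Napsa, an aspartic protease, had 1097, 477 and 343 reads, with log2 ratios of −0.90 and −1.44. Ctsf had 454, 184 and 182 reads and Ctso 113, 48 and 57, both cysteine cathepsins. Over 2-fold lower were 1 of the 4 in pOC-ABs, Ctsf, and 3 in mOC-ABs, Napsa, Ctsf and Ctse, beside 6.05% and 8.98% of all genes. The log2 intervals of Ctsf (−1.26 to −0.75 and −1.33 to −0.83) and of Ctse in mOC-ABs (−2.04 to −0.46) hold the limit of 2-fold. Ctse, an aspartic cathepsin, was singled out after its values were seen.

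Endogenous inhibitors went partly the other way. Of 22 genes 6 had rows and 5 were tested, with medians of 0.62, 0.19 and −0.43 in the 3 comparisons. Cstb, which inhibits cysteine cathepsins in the cytosol, had 831 reads from BMM-ABs, 1655 from pOC-ABs and 1888 from mOC-ABs, 2.45-fold and 2.68-fold above BMM-ABs. Cst3, the secreted inhibitor cystatin C, had 3506, 1790 and 1666 reads, with log2 ratios of −0.67 and −0.83. Serpinb9, best known as an inhibitor of granzyme B, had 41, 107 and 64 reads and was the other gene over 2-fold higher in pOC-ABs. These were 2 of 5 genes in pOC-ABs and, with Cstb alone, 1 of 5 in mOC-ABs, beside 4.84% and 4.12% of all genes.

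The 14 genes of delivery to the lysosome and of the complex that cathepsin A protects were all listed. All 14 were lower in pOC-ABs than in BMM-ABs, where 51.5% of all genes were, with a median of −0.65. Of the 14, 3 were over 2-fold lower, beside 6.05% of all genes. These were the sorting receptors Sorl1 (2023, 563 and 1145 reads) and Sort1 (409, 127 and 127) and Psap (10719, 3636 and 5203), the precursor of the saposins. In mOC-ABs the median was −0.41, and 2 genes, Sort1 and Gnptg, were over 2-fold lower, beside 8.98% of all genes. Gnptg, a subunit of the enzyme that starts the mannose 6-phosphate tag, was named after its values were seen. Its log2 interval there, −1.69 to −0.45, holds the limit. Between mOC-ABs and pOC-ABs the median was 0.36 and none was past the limit. The mannose 6-phosphate receptors M6pr (1596, 803 and 1004 reads) and Igf2r (3140, 1381 and 2503) had log2 ratios of −0.69 and −0.88 in pOC-ABs and −0.43 and −0.09 in mOC-ABs. The partners of cathepsin A were Neu1, with 888, 440 and 436 reads, and Glb1, with 420, 247 and 416. In mOC-ABs vs BMM-ABs Neu1 was at −0.79 and Glb1 at 0.23 on the log2 scale, beside −0.61 for Ctsa.

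All 14 transcription factors of osteoclast and lysosomal genes were listed, with medians of 0.03, −0.19 and 0.05. Fosl2, an AP-1 factor, had 1589, 2757 and 8427 reads, 2.14-fold higher in pOC-ABs and 6.26-fold higher in mOC-ABs than in BMM-ABs. Nfatc1, the factor that drives osteoclast genes downstream of RANK, had 2566, 2772 and 8463 reads, with log2 ratios of 0.41 and 1.96. Mitf had 736, 700 and 932 reads, and 0.23 and 0.58. Tfeb, which activates lysosomal genes, had 545, 225 and 223 reads, with −0.98 and −1.05, and its relative Tfe3 had 1483, 899 and 1058, with −0.42 and −0.25. In mOC-ABs vs BMM-ABs 2 of the 14, Fosl2 and Nfatc1, were over 2-fold higher, beside 4.12% of all genes. Over 2-fold lower there were 3, beside 8.98% of all genes, namely Tfeb, Fos (1118, 562 and 363 reads) and Jun (3074, 2486 and 1112 reads). The log2 interval of Tfeb there, −1.28 to −0.82, holds the limit. Jun was named after its values were seen.

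**Figure D5:**
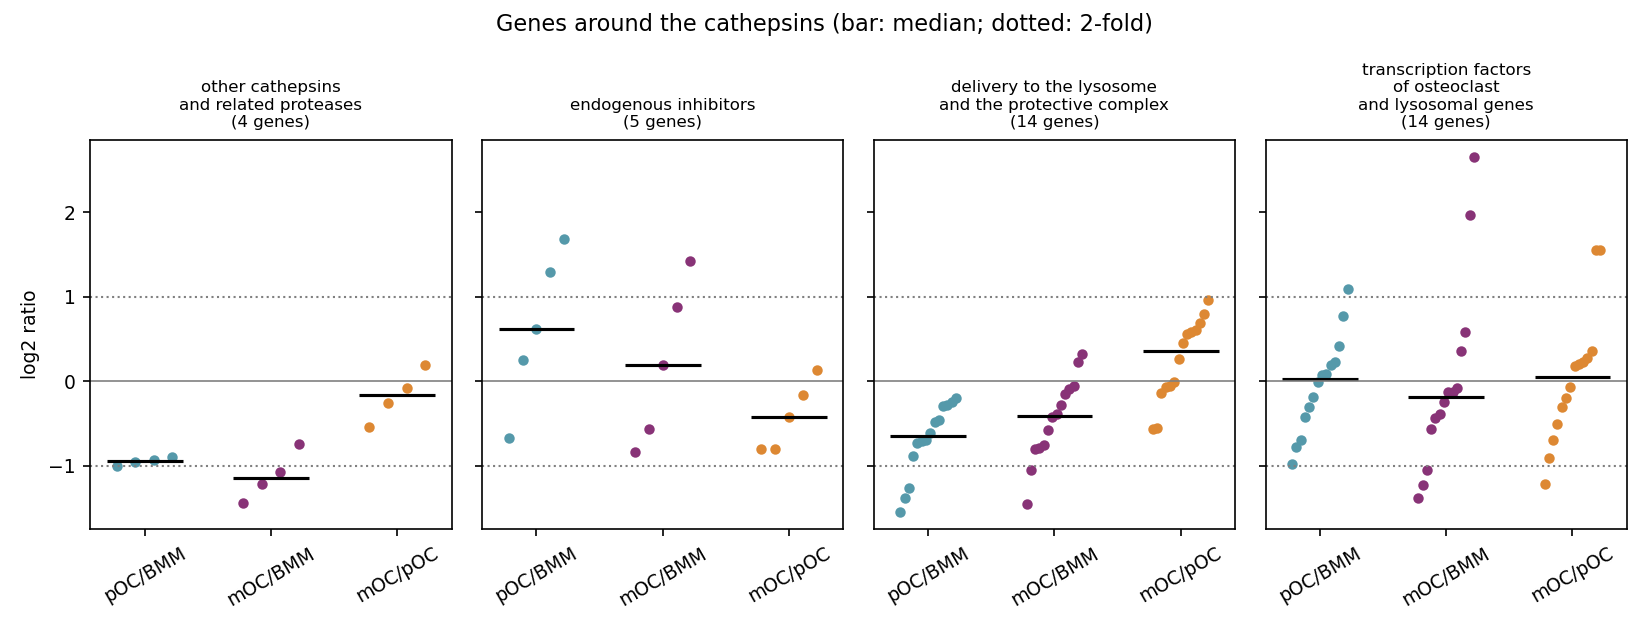
Log2 ratios of the genes with at least 20 reads in 4 lists around the cathepsins, with 1 point per gene, a bar at the list's median and dotted lines at the 2-fold limit. All 14 delivery genes lie below 0 in pOC-ABs vs BMM-ABs, and Fosl2 and Nfatc1 are the 2 highest of the transcription factors in mOC-ABs vs BMM-ABs.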

How the data were processed

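RNA of ABs from BMMs, pOCs and mOCs was sequenced on paired ends after selection on poly-T beads, 1 library per group. The submitters' processing notes name FastQC, HISAT2, StringTie and GRCm38. Their settings and the counting tool are not given in the sources used here. The authors deposited read counts and FPKM for each mRNA and lncRNA transcript, and junction read counts and SRPBM signal for circRNAs, of which only the hosts were read here. The deposited FPKM of mRNAs uses the sum of mRNA reads as its library total. Gene symbols came from GENCODE M21, which holds 56440 of the 56651 transcripts, and 98.8% of the Ensembl lncRNA loci in the tables were identical to it. The table columns 0h, 24h and 72h were taken as BMM-ABs, pOC-ABs and mOC-ABs.

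Reads per gene were summed, divided by the mRNA total and compared as ratios without a pseudocount, with exact Clopper-Pearson intervals of 95%. As the reads carry no molecular identifiers, intervals and limits cover counting error only. With 1 library per group no test was run. The calculation was tested on simulated data. The study's limit of 2-fold was used, without its FDR, which needs replicates.

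All 10 genes are named, with the transcript of most reads and those with at least 10% of a gene's reads in a library. From each list around them come up to 3 genes with the largest absolute log2 ratio among those with at least 100 reads, and the best-known ones (Cst3, Cstb, M6pr, Igf2r, Neu1, Glb1, Mitf, Tfeb, Tfe3). The genes and lists were chosen with earlier results of these data known. Start regions are from RefSeq (GRCm38.p6). Protein sequences were not used here. Alternatives changed the scaling, the transcripts counted, the pseudocount, the fold limit and the minimum of reads. Python 3.11.15, NumPy 2.4.6, pandas 2.3.3, SciPy 1.17.1 and matplotlib 3.10.9 were used.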

Additional observations from a re-analysis of the deposited data

How the results depend on the processing

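Of 162 log2 ratios of single genes recomputed under 6 alternatives (27 ratios each), 160 kept their sign and 160 their side of the 2-fold limit. The exceptions were Ctsa in mOC-ABs vs pOC-ABs and Ctsb in mOC-ABs vs BMM-ABs. The ratio of Ctsa turned negative under 2 alternatives, to −0.17 at the lowest. That of Ctsb came to −0.99 with median-of-ratios size factors and with the upper quartile. Some of the 162 could hardly change. Summed FPKM and coding transcripts alone repeated the ratios of Ctsk, Ctss and Ctsz, and the pseudocount moved the ratios little. Dividing by the total of both tables moved the median of all genes by −0.20 in pOC-ABs vs BMM-ABs, by −0.10 in mOC-ABs vs BMM-ABs and by 0.10 in mOC-ABs vs pOC-ABs, and the medians of the cathepsins to −0.96, −1.13 and 0.13. In mOC-ABs vs pOC-ABs that median was −0.14 from summed FPKM and −0.12 from coding transcripts alone. With a limit of 1.5-fold, 6 of the 9 genes were past it in pOC-ABs vs BMM-ABs (all lower), 8 in mOC-ABs vs BMM-ABs (7 lower) and 2 in mOC-ABs vs pOC-ABs (1 lower). Of all genes 29.5%, 29.8% and 24.0% were past 1.5-fold, and 15.6%, 19.5% and 15.3% in the lower direction, shares that were added after seeing the data. The share of all genes past 2-fold in either direction was 10.9%, 13.1% and 10.3%. It was 19.3%, 21.5% and 19.2% with no minimum of reads, 7.10%, 9.10% and 5.93% with a minimum of 100 reads, and 4.97%, 6.19% and 3.48% with 1000, a minimum added after seeing the data. Among coding transcripts 1 gene changed its transcript with the most reads. No paired analysis was possible because each group has 1 library. Depth limits Ctsh, with 9 reads in all, and the intervals of Ctsc and Ctsk.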
